A study of Homo sapiens with 4 samples.

Results

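The 9 genes of MHC class I antigen presentation described here were measured in C28/I2 cells, an immortalised line of human chondrocytes, given the fatty acid-binding protein FABP4. They were taken by symbol from the deposited expression table: HLA-B, HLA-C, HLA-E, HLA-F, B2M, TAP1, TAP2, PSMB8 and PSMB9, which are 9 of its 19215 genes. Of the 4 RNA-seq libraries, 2 came from cells kept for 48 h with 25 ng/mL FABP4 and 2 from cells kept for 48 h with 0.5% DMSO. All cells grew in DMEM with 10% serum and 1% penicillin and streptomycin. The labels leave out whether DMSO was added with FABP4 and whether replicates were separate cultures, so p-values reflect no more than the spread of these libraries, which may be technical. C28/I2 is a single immortalised line, which limits it as a model of cartilage cells.

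Class I molecules show peptides from inside the cell to cytotoxic T cells and natural killer cells. Proteasomes cut proteins into peptides, the TAP transporter carries these into the endoplasmic reticulum, and a loading complex fits them onto a heavy chain paired with beta-2-microglobulin. Interferons raise most of these genes through IRF and STAT factors, and interferon-gamma swaps catalytic subunits of the proteasome for inducible ones. Cells other than leukocytes also carry class I, at levels that depend on such signals.

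The regulatory sequence before the start sites was searched for short motifs, and each was found in some of the genes but not in all. Sequences are from RefSeq on GRCh38.p14 and run 5′ to 3′ from 200 bases before the start site to 20 bases from it on. They lie at chr6:31357160-31357379 (minus strand) for HLA-B, chr6:31272073-31272292 (minus) for HLA-C, chr6:29723234-29723453 (plus) for HLA-F and chr15:44711317-44711536 (plus) for B2M. Those of the transporter and proteasome genes lie at chr6:32853685-32853904 (minus) for TAP1, chr6:32838720-32838939 (minus) for TAP2, chr6:32844028-32844247 (minus) for PSMB8 and chr6:32853992-32854211 (plus) for PSMB9. Capitals mark matches, on either strand, to an IRF-type motif (GAAA, any 2 bases, GAAA), to the NF-kappaB consensus, to the core of the X2 box (TGACG) or to that of the Y box (ATTGG). In HLA-B, B2M and TAP1 matches to the same motif overlap and form 1 run of capitals. For TAP1 and PSMB8, which have 2 RefSeq starts each, the start with an IRF-type match is shown.

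HLA-B: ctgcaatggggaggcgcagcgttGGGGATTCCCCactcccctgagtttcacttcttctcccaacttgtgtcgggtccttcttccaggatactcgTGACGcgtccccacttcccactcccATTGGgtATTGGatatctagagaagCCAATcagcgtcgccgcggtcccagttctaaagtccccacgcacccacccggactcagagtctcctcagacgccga
HLA-C: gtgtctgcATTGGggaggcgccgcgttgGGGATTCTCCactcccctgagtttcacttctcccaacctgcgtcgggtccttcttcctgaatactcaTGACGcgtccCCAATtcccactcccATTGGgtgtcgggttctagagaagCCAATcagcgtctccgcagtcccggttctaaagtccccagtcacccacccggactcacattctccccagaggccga
HLA-F: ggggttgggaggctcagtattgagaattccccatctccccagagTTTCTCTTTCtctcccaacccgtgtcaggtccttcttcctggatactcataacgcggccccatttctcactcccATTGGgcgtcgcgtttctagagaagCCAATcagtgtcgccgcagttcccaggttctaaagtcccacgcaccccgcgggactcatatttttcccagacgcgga
B2M: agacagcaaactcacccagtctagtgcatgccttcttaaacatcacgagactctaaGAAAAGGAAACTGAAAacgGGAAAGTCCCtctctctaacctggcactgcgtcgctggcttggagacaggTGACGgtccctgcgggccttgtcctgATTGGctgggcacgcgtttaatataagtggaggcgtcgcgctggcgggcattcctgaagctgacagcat
TAP1: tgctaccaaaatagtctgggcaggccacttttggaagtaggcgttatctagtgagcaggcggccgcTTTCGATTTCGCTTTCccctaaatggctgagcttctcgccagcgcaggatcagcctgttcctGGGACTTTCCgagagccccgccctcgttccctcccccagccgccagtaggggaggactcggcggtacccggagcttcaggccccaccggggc
TAP2: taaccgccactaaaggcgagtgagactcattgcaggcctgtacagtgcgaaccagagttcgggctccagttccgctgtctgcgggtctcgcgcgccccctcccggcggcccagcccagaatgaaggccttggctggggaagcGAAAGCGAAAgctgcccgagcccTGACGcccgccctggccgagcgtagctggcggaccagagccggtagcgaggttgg
PSMB8: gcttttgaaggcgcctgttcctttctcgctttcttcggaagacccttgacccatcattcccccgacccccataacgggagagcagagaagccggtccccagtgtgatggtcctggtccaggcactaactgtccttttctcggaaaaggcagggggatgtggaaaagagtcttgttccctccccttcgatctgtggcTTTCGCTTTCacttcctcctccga
PSMB9: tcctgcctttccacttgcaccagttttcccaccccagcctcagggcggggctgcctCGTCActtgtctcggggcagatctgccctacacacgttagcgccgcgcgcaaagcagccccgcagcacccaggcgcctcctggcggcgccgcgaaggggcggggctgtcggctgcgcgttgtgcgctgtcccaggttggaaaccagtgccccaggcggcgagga

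The IRF-type motif occurs in 2.68% of 34796 promoters of this length. It lies in 5 of the 10 RefSeq promoters of the 8 genes, those of HLA-F, B2M, TAP1, TAP2 and PSMB8. The starts of TAP1 and PSMB8 shown were picked by this match, and their other starts hold none. The NF-kappaB consensus occurs in 4.47% of all promoters and lies in HLA-B, HLA-C, B2M and TAP1. The X2 core occurs in 20.1% of all promoters and lies in HLA-B, HLA-C, B2M, TAP2, PSMB8 and PSMB9, for PSMB8 at the start not shown. The Y core occurs in 29.2% and lies in HLA-B, HLA-C, HLA-F and B2M. In HLA-B the X2 core spans positions -106 to -102 from the start, and the next Y core on the same strand -81 to -77. In HLA-C these are -105 to -101 and -80 to -76, and in B2M -75 to -71 and -49 to -45. HLA-C also holds a Y core on the other strand between them, at -95 to -91. TAP1 and PSMB9 run away from each other, with start sites 488 bases apart. The IRF-type matches of TAP1 lie between them, at -134 to -119 from the TAP1 start and, at their near end, 354 bases before that of PSMB9. A match is only a run of letters, and no binding was measured.

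**Figure D1:**
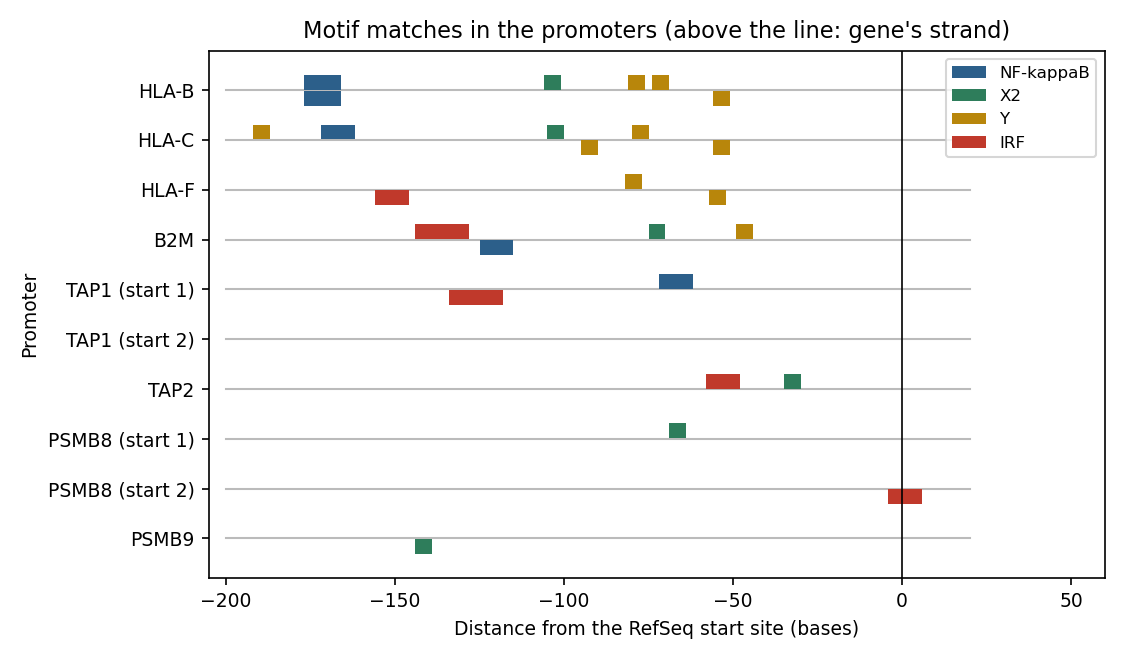
Motif matches in the 10 RefSeq promoters of 8 genes, by distance from the start site in bases (x axis). Each row is a promoter, boxes above the line lie on the strand of the gene and boxes below it on the other, and colours give the motif. IRF-type matches lie in 5 of the 10 windows, and PSMB9 holds only an X2 core.

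In the expression data none of the 9 genes passed the test between FABP4 and DMSO. PSMB9, an inducible proteasome subunit, came nearest, at 1.48 times the DMSO level. The next were TAP1 at 1.19 times and PSMB8 at 1.16 times, while HLA-C and TAP2 stood at 1.01 and 0.983 times. Differences were tested with limma on log2(FPKM + 1) over all 12490 genes that reached 1 FPKM in 2 libraries or more, with Benjamini-Hochberg adjustment. FPKM are fragments per kilobase of transcript, scaled to depth. Fold changes on this log scale understate those of low genes, and more so the lower the level. All 9 genes passed that filter. In limma 0 of 9 had an adjusted p under 0.05 and 1 had an unadjusted p under 0.05, against 0.592% and 9.68% of all tested genes. That 1 gene was higher with FABP4, as were 5.68% of all tested genes at the same unadjusted p. In the authors' deposited table, made with DESeq2, 0 of the 9 had a q under 0.05, against 118 of all 19215 genes. At a DESeq2 p under 0.05 there was 1 of the 9. The log2 fold changes of that table were 0.12 for TAP1 and 0.22 for PSMB8, the reverse of the order here. They lay above 0 in 7 of the 9, all but HLA-C (-0.085) and TAP2 (-0.14).

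Of the 9 genes, 8 had a log2 fold change above 0, as did 54% of all tested genes, and the median of the 9 was 0.13 against 0.014 for all tested genes. Leaving out FABP4 replicate 1 gave the 9 a median of 0.066, and leaving out FABP4 replicate 2, DMSO replicate 1 or DMSO replicate 2 one of 0.23, 0.20 or 0.090. With equal totals it was 0.085 against -0.027 for all tested genes. In 5 of the 9 genes (55.6%) both FABP4 libraries lay above both DMSO libraries, against 20.7% of all tested genes, and in 0 below, against 16.1%. The members share their libraries and were chosen with earlier results known, so these counts are a description with no test. The 95% interval of every one of the 9 lay within a 2-fold change either way, from 0.809 times (HLA-C) to 1.77 times (PSMB9).

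Fragment numbers were estimated at 11175000 to 13000000 per library from the steps of low FPKM values. The FPKM summed to 582695 to 632473, highest in FABP4 replicate 1, and correlations between libraries on the log2 scale ran from 0.991 to 0.994 over tested genes. Of 13 chondrocyte markers 9 were below 1 FPKM throughout, with COL2A1, the cartilage collagen, at 0 to 0.05 FPKM, while SOX9, the chondrocyte transcription factor, stood at 8.81 and 9.98 FPKM with FABP4 and 11.3 and 11.3 with DMSO. COL11A2, another cartilage collagen, lay the other way, at 3.96 and 4.0 FPKM with FABP4 and 3.07 and 2.78 with DMSO, and the limma adjusted p was 0.531 for SOX9 and 0.326 for COL11A2. The 13 summed to 17.0 and 19.9 FPKM with FABP4 and 20.2 and 19.95 with DMSO. Of 12 leukocyte markers 9 stayed under 1 FPKM in every library, and PTPRC, which defines leukocytes, was at most 0.08 FPKM. Their summed level was 157 and 150 FPKM with FABP4 and 175 and 154 with DMSO, nearly all of it CD68, and its part in the results was not tested.

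HLA-B and HLA-C are classical heavy chains, which bind the peptides seen by cytotoxic T cells. HLA-B (gene ID 3106; transcript on chromosome 6, 31353872 to 31357187, minus strand, GRCh38, 8 exons) had 639 and 620 FPKM with FABP4 (replicates 1 and 2, an order kept throughout), and 589 and 548 FPKM with DMSO. Both FABP4 libraries lay above both DMSO libraries, with group means of 630 ± 13.1 and 569 ± 28.5 FPKM (SD, n = 2 each). The log2 fold change was 0.15 (SE 0.15, 95% interval -0.18 to 0.47, limma adjusted p = 0.891). HLA-C (gene ID 3107; chromosome 6, 31268749 to 31272086, minus strand, 8 exons) had 480 and 491 FPKM with FABP4 against 523 and 440 with DMSO. Both FABP4 values lay between the DMSO values, and the log2 fold change was 0.017 (95% interval -0.31 to 0.34, limma adjusted p = 0.993). Its sign turned with other scalings, at -0.029 with equal totals and -0.00075 with median-of-ratios scaling.

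HLA-E and HLA-F are nonclassical heavy chains. HLA-E presents leader peptides of other class I chains to NKG2 receptors of natural killer cells. HLA-E (gene ID 3133; chromosome 6, 30489467 to 30494205, plus strand, 8 exons) had 91.5 and 90.7 FPKM with FABP4 against 86.9 and 81.2 with DMSO. The groups did not overlap, with a log2 fold change of 0.12 (95% interval -0.14 to 0.37, limma adjusted p = 0.897). HLA-F (gene ID 3134; chromosome 6, 29723279 to 29727296, plus strand, 7 exons) had 52.3 and 45.2 FPKM with FABP4 against 47.3 and 41.6 with DMSO. Here the groups overlapped, and the log2 fold change was 0.13 (95% interval -0.13 to 0.40, limma adjusted p = 0.868). Leaving out a FABP4 library gave 0.028 (replicate 1) or 0.23 (replicate 2), and leaving out a DMSO library 0.22 (replicate 1) or 0.040 (replicate 2). With DMSO replicate 2 left out, the log2 fold change of HLA-B was 0.096 and that of HLA-E 0.068.

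B2M encodes beta-2-microglobulin, the light chain common to all these molecules. B2M (gene ID 567; chromosome 15, 44711487 to 44718877, plus strand, 4 exons) was the highest of the 9, at 1001 and 826 FPKM with FABP4 against 806 and 898 with DMSO. Each group held 1 high and 1 low library, so the groups overlapped. The log2 fold change was 0.096 (95% interval -0.26 to 0.46, limma adjusted p = 0.953). The summed level of HLA-B, HLA-C, HLA-E and HLA-F was 1.26 and 1.51 times that of B2M in FABP4 replicates 1 and 2, and 1.55 and 1.24 times in DMSO replicates 1 and 2. The groups overlapped, with means of 1.39 in both (exact permutation test, two-sided p = 1.00).

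The heavy chains are close relatives, which limits how well reads can be told apart. The coding sequences of HLA-B and HLA-C, of 1089 and 1101 bases, were 92.6% identical over 1089 aligned bases, and the other pairs of these 4 genes were 84.5% to 86.9% identical. Identical runs were shorter: of 60 windows of 50 bases along the principal transcript, 1 in HLA-B, 3 in HLA-C, 2 in HLA-E and 1 in HLA-F also occurred in a transcript of another gene. These genes are also highly polymorphic, and no source used here gives the alleles of C28/I2. Their levels are therefore those of reads assigned to reference alleles and are uncertain.

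TAP1 and TAP2 form the peptide transporter. TAP1 (gene ID 6890; chromosome 6, 32845209 to 32853978, minus strand, 11 exons) had 50.1 and 49.4 FPKM with FABP4 against 46.7 and 36.9 with DMSO. The groups did not overlap, and DMSO replicate 2 lay well below the other 3 libraries. The log2 fold change was 0.25 (SE 0.13, 95% interval -0.018 to 0.53, limma adjusted p = 0.565), which became 0.090 when DMSO replicate 2 was left out and 0.42 when DMSO replicate 1 was. TAP2 (gene ID 6891; chromosome 6, 32821833 to 32838727, minus strand, 12 exons) had 31.2 and 35.4 FPKM with FABP4 against 35.7 and 32.0 with DMSO. Its groups overlapped, with a log2 fold change of -0.024 (95% interval -0.28 to 0.23, limma adjusted p = 0.988). Of its 60 windows 48 also occur in AL669918.1, a gene that overlaps TAP2 on the same strand in GENCODE 29, so its level is uncertain.

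PSMB8 and PSMB9 are catalytic subunits that interferon-gamma brings into the proteasome. PSMB8 takes the place of PSMB5, PSMB9 that of PSMB6 and PSMB10 that of PSMB7. PSMB8 (gene ID 5696; chromosome 6, 32840717 to 32844047, minus strand, 6 exons) had 43.0 and 35.5 FPKM with FABP4 against 34.5 and 33.2 with DMSO. The groups did not overlap, but FABP4 replicate 2 lay nearer to the DMSO libraries than to FABP4 replicate 1. The log2 fold change was 0.20 (SE 0.12, 95% interval -0.061 to 0.47, limma adjusted p = 0.691), and 0.066 without FABP4 replicate 1.

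PSMB9 (gene ID 5698; chromosome 6, 32854161 to 32859585, plus strand, 6 exons) had 34.3 and 25.3 FPKM with FABP4 against 21.2 and 19.0 with DMSO. Both FABP4 libraries lay above both DMSO libraries, and FABP4 replicate 1 lay far above FABP4 replicate 2. The means were 29.8 ± 6.35 and 20.1 ± 1.53 FPKM (SD, n = 2 each). The log2 fold change was 0.53 (SE 0.14, 95% interval 0.24 to 0.82, limma unadjusted p = 0.00123, adjusted p = 0.103), ranked 149 of 12490 by p. The interval of PSMB9 was the only one of the 9 that did not include 0.

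The PSMB9 result turned on single libraries and on the settings. Without FABP4 replicate 1 the log2 fold change was 0.32, and without FABP4 replicate 2 it was 0.74. Each of these fits held 1 FABP4 library and so no spread within FABP4, and no p-value is given for them. PSMB9 passed with equal totals (limma adjusted p = 0.0262) and with robust variance moderation (limma adjusted p = 0.0258). Without the filter on low values its limma adjusted p was 0.595. PSMB9 is short and the lowest of the 9, so its values rest on an estimated 127 to 213 fragments a library, with a counting error of up to 8.87%. That error covers counting only. The authors' deposited table gives PSMB9 a log2 fold change of 0.48, a p of 0.00972 and a q of 0.409.

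**Figure D2:**
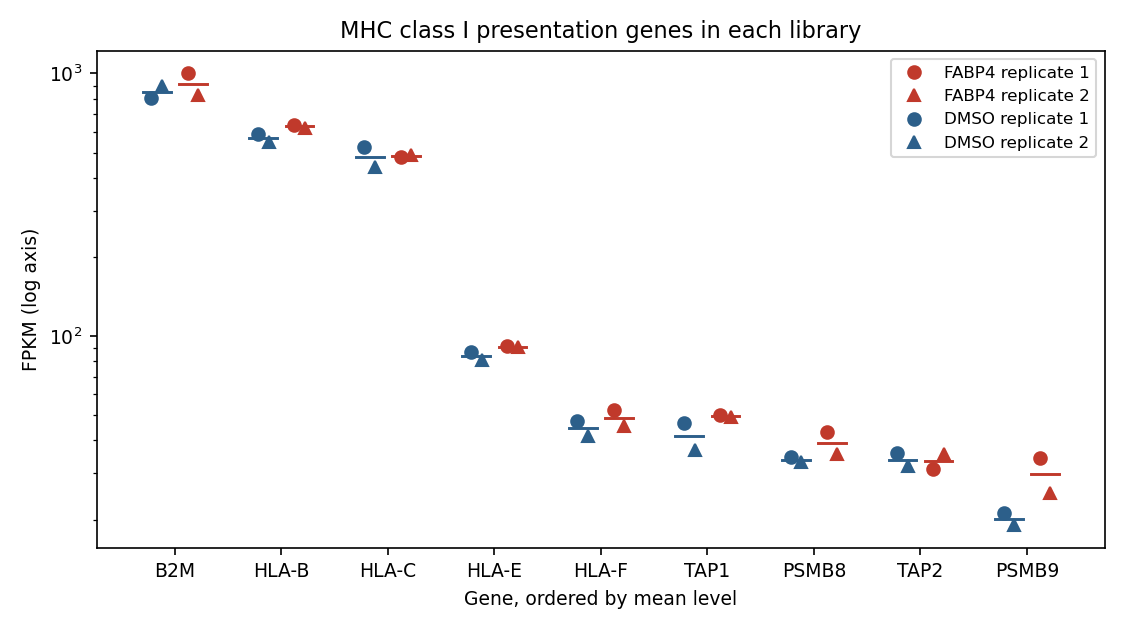
FPKM of the 9 genes (log axis) in each library, ordered by mean level. Points are libraries, with red for FABP4, blue for DMSO, circles for replicate 1 and triangles for replicate 2, and lines are means of n = 2. B2M lies highest at 806 to 1001 FPKM and PSMB9 lowest at 19.0 to 34.3 FPKM.

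The order of levels was B2M, HLA-B, HLA-C, HLA-E, HLA-F, TAP1, PSMB8, TAP2 and PSMB9, compared per length as FPKM. Over the 4 libraries the mean was 883 ± 88.4 FPKM for B2M, 599 ± 39.5 for HLA-B, 484 ± 33.9 for HLA-C, 87.6 ± 4.72 for HLA-E and 46.6 ± 4.47 for HLA-F. It was 45.8 ± 6.07 FPKM for TAP1, 36.6 ± 4.42 for PSMB8, 33.6 ± 2.33 for TAP2 and 25.0 ± 6.76 for PSMB9. From B2M down to HLA-F no gene overlapped the next over the 4 libraries, and the widest step was from HLA-C to HLA-E, 5.52 times. From HLA-F down the range of each gene over the 4 libraries overlapped that of the next. Within libraries TAP1 lay above PSMB8 in 4 of 4, while HLA-F lay above TAP1, PSMB8 above TAP2 and TAP2 above PSMB9 in 3 of 4 each. B2M stood at rank 86 and PSMB9 at rank 3651 of the 12490 tested genes.

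**Figure D3:**
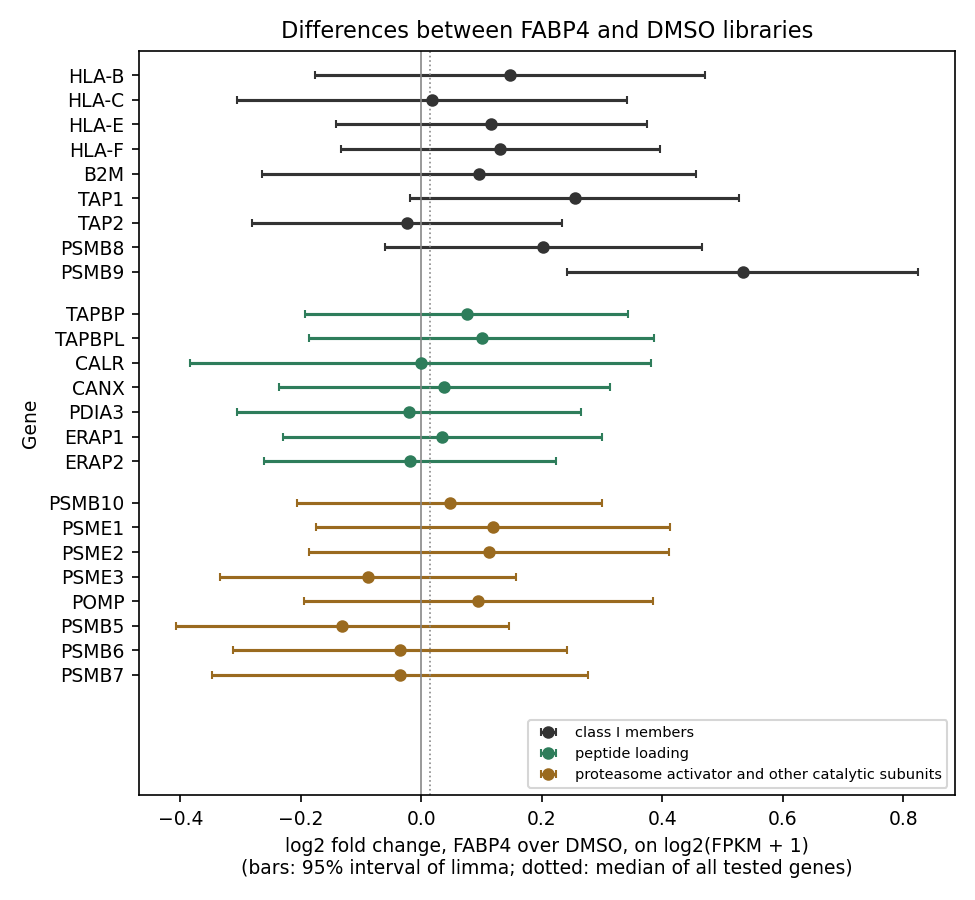
log2 fold change of FABP4 over DMSO on log2(FPKM + 1) with its 95% limma interval (x axis) for the 9 genes and for the loading and proteasome genes. The dotted line is the median of all tested genes, 0.014. The intervals of all genes drawn include 0 except that of PSMB9, 0.24 to 0.82.

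Ratios within a library do not depend on how the libraries are scaled. PSMB9 stood at 0.290 and 0.258 times PSMB6 in FABP4 replicates 1 and 2, and at 0.191 and 0.173 times in DMSO replicates 1 and 2. PSMB8 stood at 0.294 and 0.278 times PSMB5 with FABP4 against 0.230 and 0.222 with DMSO. In both ratios the groups did not overlap and the FABP4 libraries lay closer together than in the FPKM of the inducible subunit alone. PSMB10, at 30.4 and 26.5 FPKM against 28.3 and 26.6, stood at 0.136 and 0.155 times PSMB7 with FABP4 against 0.148 and 0.126 with DMSO, and those groups overlapped. The differences in log2 ratio were 0.59 for PSMB9 to PSMB6, 0.34 for PSMB8 to PSMB5 and 0.085 for PSMB10 to PSMB7.

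TAP1 stood at 1.61 and 1.39 times TAP2 with FABP4 against 1.31 and 1.15 times with DMSO, a log2 difference of 0.29 with no overlap. It became 0.18 or 0.39 when FABP4 replicate 1 or 2 was left out, and 0.37 or 0.20 when DMSO replicate 1 or 2 was. For this ratio and the PSMB8 and PSMB9 ratios the two-sided exact permutation test gave p = 0.333, the smallest p that 2 against 2 libraries allow, and 0.556 after adjustment over the 5 ratios computed. The PSMB10 ratio had p = 0.667 in the same exact test. Such a design cannot pass 0.05, so these p-values say nothing about whether the ratios differ. The standard subunits themselves stood at 146 and 128 FPKM against 150 and 149 (PSMB5), 118 and 98.2 against 111 and 110 (PSMB6) and 223 and 171 against 191 and 210 (PSMB7), with limma adjusted p values of 0.880, 0.984 and 0.986.

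**Figure D4:**
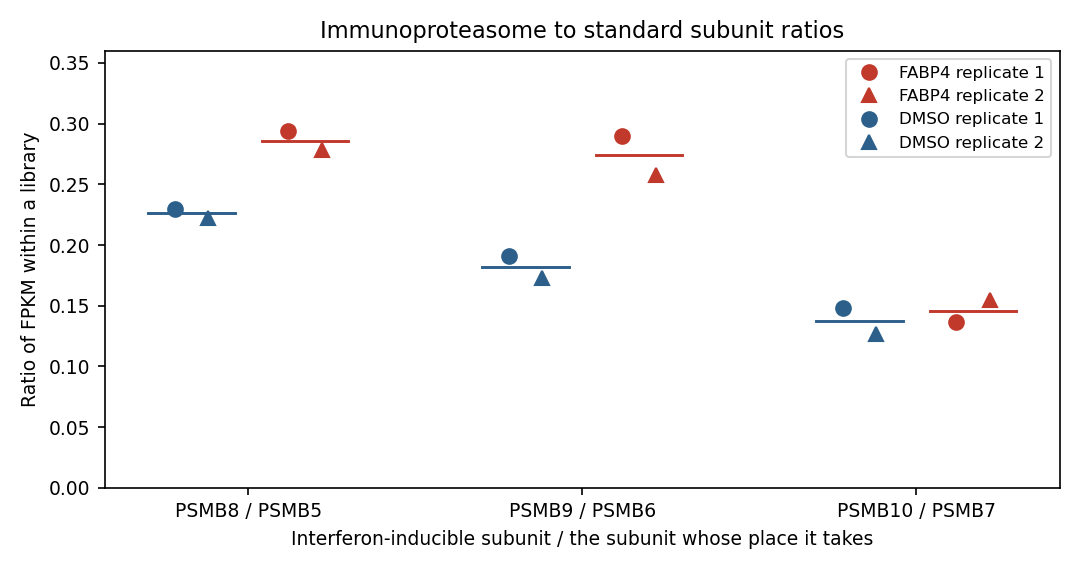
FPKM of each inducible proteasome subunit divided by that of the standard subunit it replaces (y axis, from 0), in each library, with means of n = 2 as lines. PSMB8/PSMB5 and PSMB9/PSMB6 do not overlap between FABP4 (red) and DMSO (blue), and PSMB10/PSMB7 does.

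Most of the 9 genes were highest in 1 FABP4 library and lowest in 1 DMSO library. FABP4 replicate 1 held the highest of the 4 values for 7 genes and DMSO replicate 2 the lowest for 7. The shares of all tested genes with these extremes were not computed, so the counts are not a trait of the 9. The FPKM total was also highest in FABP4 replicate 1 (632473) and lowest in DMSO replicate 2 (582695), and its part in the counts was not tested. The mean deviation of the 9 genes from their own mean log2 level was 0.14 in FABP4 replicate 1, 0.024 in FABP4 replicate 2, -0.018 in DMSO replicate 1 and -0.15 in DMSO replicate 2. FABP4 replicate 2 thus lay nearer to DMSO replicate 1 than to FABP4 replicate 1. The median over all tested genes was 0.013, -0.0017, -0.027 and 0.013 in these libraries, in the same order. As a share of all FPKM of a library the 9 genes made up 0.383% and 0.375% with FABP4 against 0.363% and 0.366% with DMSO.

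**Figure D5:**
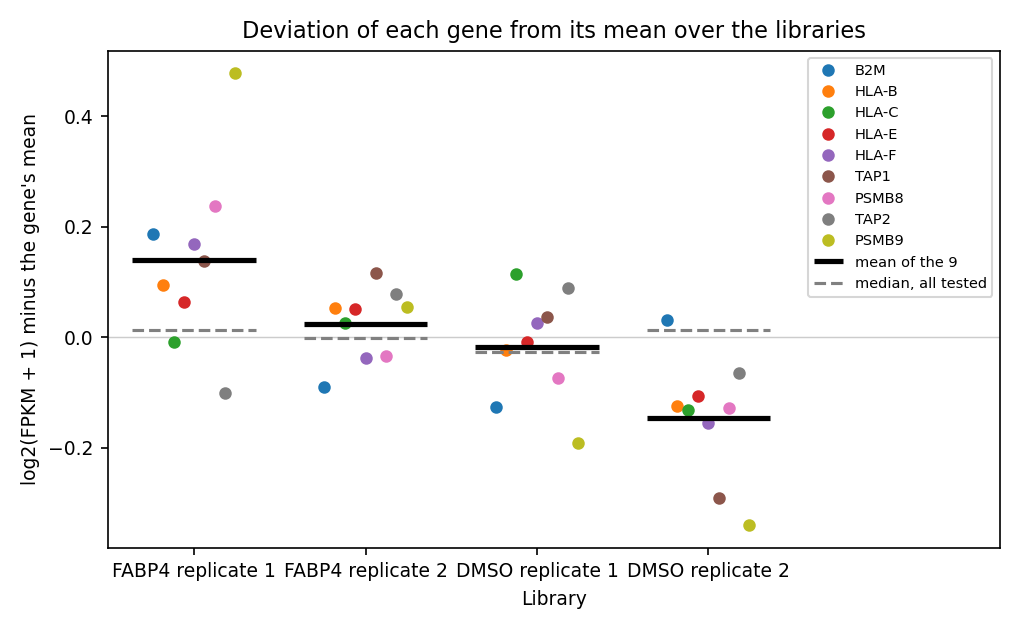
log2(FPKM + 1) of each of the 9 genes minus its mean over the 4 libraries (y axis), by library. Black lines are the mean of the 9, from 0.14 in FABP4 replicate 1 to -0.15 in DMSO replicate 2, and dashed lines the median of all tested genes. PSMB9 has the widest span and TAP2 and HLA-C run against the mean in FABP4 replicate 1.

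The 5 genes whose centred profile was nearest to this mean were IFT22, ZNF707, SP110, GPS2 and LSM3, out of 9022 genes with a mean of at least 5 FPKM outside the lists. Their root mean square difference from it over the 4 libraries was 0.010 to 0.013 on the log2 scale. The median of this difference over the 9022 genes was 0.14. Among the members HLA-B lay nearest, at 0.029. PSMB9 lay farthest, at 0.21, which is beyond that median, and TAP2 (0.14) and B2M (0.12) lay near it. The 9 therefore do not all share the mean profile.

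In the loading list of 7 genes (tapasin and its relative, chaperones and trimming peptidases) 0 passed in limma, 0 had an unadjusted p under 0.05, and the median log2 fold change was 0.034. TAPBP, the tapasin gene that bridges TAP and the heavy chain, had 81.9 and 87.6 FPKM with FABP4 against 86.7 and 74.5 with DMSO (limma adjusted p = 0.95). TAPBPL, which edits the peptides bound outside the loading complex, had 16.3 and 19.9 against 18.8 and 14.8 FPKM (limma adjusted p = 0.932). Of 8 other proteasome and activator genes 0 passed in limma and 0 had an unadjusted p under 0.05, with a median of 0.0056. PSME1, a subunit of the interferon-inducible activator, had 166 and 131 FPKM against 134 and 138 (limma adjusted p = 0.914). Of 6 tested class I-like genes 0 passed in limma and 0 had an unadjusted p under 0.05. Among them MICB, a stress ligand of the NKG2D receptor, had 1.64 and 1.29 FPKM with FABP4 against 1.73 and 1.90 with DMSO (limma adjusted p = 0.795).

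Of 15 regulators of class I transcription 0 passed in limma and 0 had an unadjusted p under 0.05. In 6 of the 15 the FABP4 libraries lay above both DMSO libraries and in 0 below, against 20.7% and 16.1% of all tested genes. This list was also chosen with earlier results known, so these counts are a description with no test. The median log2 fold change of the 15 was 0.083. STAT2, a transcription factor of type I interferon signalling, had 49.6 and 53.1 FPKM with FABP4 against 44.5 and 42.04 with DMSO, and a log2 fold change of 0.24 (limma adjusted p = 0.544). RFX5, which binds the X box of MHC promoters, had 18.3 and 17.8 FPKM against 14.2 and 16.8, and a log2 fold change of 0.21 (limma adjusted p = 0.648), or 0.099 with DMSO replicate 1 left out and 0.32 with DMSO replicate 2 left out. NLRC5, the transactivator of class I genes, had 11.5 and 12.6 FPKM against 12.7 and 11.7, and IRF1, a factor that binds IRF-type motifs, 14.1 and 12.99 against 13.1 and 12.2. Their limma adjusted p values were 0.992 and 0.931, and both genes were named after their values were seen.

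Among 9 interferon receptor and kinase genes 0 passed in limma and 2 had an unadjusted p under 0.05. These were SOCS3, a feedback inhibitor of JAK signalling, at 31.2 and 29.5 FPKM with FABP4 against 22.6 and 22.0 with DMSO (limma adjusted p = 0.126), and IFNGR1, the ligand-binding chain of the interferon-gamma receptor, at 17.4 and 17.1 against 14.0 and 14.2 FPKM (limma adjusted p = 0.418). Of 35 tested interferon response genes 0 passed in limma and 13 had an unadjusted p under 0.05, against 9.68% of all tested genes. Their log2 fold changes lay above 0 in 32 of 35, with a median of 0.21. In 21 (60%) both FABP4 libraries lay above both DMSO libraries, against 20.7% of all tested genes. The list was chosen with earlier results known and its genes share their libraries, so these counts are a description with no test. The summed level of the 36 listed genes overlapped between the groups, at 4202 and 3605 FPKM with FABP4 against 3852 and 3241 with DMSO. A few very high genes make up most of this sum, so it says little of the rest of the list. XAF1, which antagonises an inhibitor of apoptosis, had 4.71 and 4.77 FPKM against 3.63 and 2.45 (limma adjusted p = 0.136) and TRIM22, an antiviral ubiquitin ligase, 16.8 and 16.7 against 12.6 and 12.9 (limma adjusted p = 0.208). XAF1 passed with robust variance moderation (limma adjusted p = 0.0482), and without the filter on low values its limma adjusted p was 0.606. Its log2 fold change was 0.52, or 0.73 without DMSO replicate 1 and 0.31 without DMSO replicate 2.

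Class II genes present outside antigens on specialised cells. Of 13 such genes 7 stayed under 1 FPKM in every library, 2 of them listed at 0 in all. The highest, HLA-DMA, which helps load class II molecules, and HLA-DPA1, a class II alpha chain, had 16.6 to 25.0 and 12.2 to 15.1 FPKM over the 4 libraries, and both were named after their values were seen. Of the 6 tested 0 passed in limma and 0 had an unadjusted p under 0.05. HLA-DRA had 1.70 and 1.66 FPKM with FABP4 against 2.29 and 1.92 with DMSO, and HLA-DMB 1.75 and 1.90 against 1.24 and 1.71 (limma adjusted p = 0.744 and 0.797).

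The calls near the pathway lay in a list of genes of class I turnover and of receptors or ligands on the same cell, which also holds degradation components of the endoplasmic reticulum. Of its 11 genes 2 fell and 0 rose in limma at an adjusted p of 0.05, against 0.296% of all tested genes that fell. The list was chosen with earlier results of these data known, so this count is a description with no test. MARCHF4, a membrane ubiquitin ligase that lowers surface class I when overexpressed, had 10.6 and 10.5 FPKM with FABP4 against 16.3 and 16.9 with DMSO. The means were 10.5 ± 0.0424 and 16.6 ± 0.368 FPKM (SD, n = 2 each), and the log2 fold change was -0.61 (SE 0.11, limma adjusted p = 0.020). The gene is named because of this call, so the gap between its groups gives no further support. PDCD1LG2, the gene of the PD-1 ligand PD-L2, had 2.5 and 2.83 FPKM against 4.26 and 5.05, a log2 fold change of -0.62 (SE 0.13, limma adjusted p = 0.0433).

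Neither call held throughout. That of MARCHF4 was lost in 5 of 11 alternative settings, over all of which its log2 fold change ran from -0.65 to -0.59 and its adjusted p from 0.00134 to 0.460. Among the settings that lost it, leaving out FABP4 replicate 2 gave a log2 fold change of -0.61, and leaving out DMSO replicate 2 one of -0.59. That of PDCD1LG2 was lost in 6 of 11, over all of which the log2 fold change ran from -0.78 to -0.52 and the adjusted p from 0.00701 to 0.577. Here leaving out FABP4 replicate 1 gave a log2 fold change of -0.56, and leaving out DMSO replicate 2 one of -0.52. Both were lost with the replicate block (limma adjusted p = 0.0669 for MARCHF4 and 0.0669 for PDCD1LG2), which kept every library. A fit with a library left out holds 1 library in a group, so its p-value lacks the spread of that group and is not given. MARCHF9, a relative of MARCHF4 with the same activity, had 10.8 and 10.9 FPKM with FABP4 against 10.1 and 9.14 with DMSO (limma adjusted p = 0.797).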

How the data were processed

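RNA-seq of total RNA was available for 2 libraries of each group, grouped by the treatment label. The authors deposited 1 table with FPKM per library, per the file headers, beside DESeq2 results of the authors: a log2 fold change and the p-value and q-value of each gene. Bowtie2 2.2.5, RSEM 1.2.12, DESeq2 1.4.5 and GRCh38.p13 are named without roles, per the submitters' processing notes. No source used here gives the annotation, the filters or the strandedness.

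Values were taken as log2(FPKM + 1), 12490 of 19215 genes, those at 1 FPKM or more in 2 or more libraries, were tested, and the model of limma 3.58.1 (R 4.3.3) held only the condition, with variances moderated along a mean trend, two-sided, with Benjamini-Hochberg adjustment at 0.05. The test and the depth estimate were tested on simulated data. Ratios were compared with the exact permutation test of SciPy 1.17.1 and coding sequences aligned with Biopython 1.88. The estimate of fragments per library assumes whole fragments and a fitted fragment length of 270 bases, and 1 FPKM over 1 kilobase then rests on 11.2 to 13.0 fragments. Positions are those of principal transcripts of GENCODE 29 on GRCh38. Replicate numbers come from the titles, and no label says that they pair libraries.

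The members, lists and rules were chosen with earlier results of these data known. Named are the 9 genes; called genes of each related list or, with none called, its 2 genes of smallest p; the subunits used in the ratios; and the 5 genes with the nearest profile. MARCHF9 is named as the relative of a called gene, after its values were seen. A gene that the rule names is not reported here.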

Additional observations from a re-analysis of the deposited data

How the results depend on the processing

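Over the 11 alternative settings (pseudocount, filter, 3 scalings, robust variance moderation, the replicate block and each library left out) HLA-B, HLA-E, HLA-F, TAP1, PSMB8 and PSMB9 stayed above 0, and PSMB9 was the only one of the 9 that passed in any. The count of the 9 past the threshold, 0, became 1 with equal totals, 1 with robust variance moderation and 0 to 1 with a library left out, and stayed 0 under the others, the replicate block among them (PSMB9 limma adjusted p = 0.147). Over all genes 74 passed; the count was 0 in limma without the filter on low values (1362 at an unadjusted p under 0.05), 180 with equal totals, 10 after quantile normalization, 164 with robust variance moderation, 47 with the replicate block and 49 to 150 with a library left out. Deviations of same-numbered libraries correlated at -0.12 over genes, and with crossed pairs, a setting chosen after seeing the data, 418 genes passed and 1 of the 9.

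The cause of the changes was not tested, and all values that changed sign had missed the threshold. Those were log2 fold changes of HLA-C at -0.029 with equal totals, -0.00075 with median-of-ratios scaling and -0.11 without DMSO replicate 2. Without FABP4 replicate 1 they were B2M at -0.043, TAP2 at 0.065, PSMB10 at -0.047, PSME1 at -0.051 and NLRC5 at 0.048, and the log2 ratio of heavy chains to B2M was 0.13. Without FABP4 replicate 2 they were PSMB6 at 0.098, PSMB7 at 0.15, TAPBPL at -0.038 and the PSMB10 to PSMB7 log2 ratio at -0.0080. Without DMSO replicate 1 they were TAP2 at 0.053, NLRC5 at 0.042 and the heavy chain ratio at 0.16. Without DMSO replicate 2 they were PSMB7 at 0.033, TAPBPL at -0.062, TAPBP at -0.034 and the PSMB10 ratio at -0.032. Leaving out a library moved these values between -0.11 and 0.14 for HLA-C, -0.043 and 0.23 for B2M, -0.11 and 0.065 for TAP2, -0.17 and 0.098 for PSMB6, -0.22 and 0.15 for PSMB7, -0.047 and 0.14 for PSMB10, and -0.079 and 0.048 for NLRC5. The limits were -0.062 and 0.26 for TAPBPL, -0.034 and 0.18 for TAPBP, -0.051 and 0.29 for PSME1, -0.032 and 0.20 for the PSMB10 ratio and -0.16 and 0.16 for the heavy chain ratio. Each group had 2 libraries.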
